A study of Mus musculus with 14 samples.

Results

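The 8 genes described here encode the enzymes that make and use citrulline and arginine in the small intestine: Arg2, Cps1, Otc, Oat, Ass1, Asl, Aldh18a1 and Nags. They were taken by gene symbol from the 36401 genes counted in the series, and each of the 8 matched a gene that passed the filter on low counts. RNA was sequenced from 14 mouse libraries of strain C57Bl6, labelled male and 6 to 12 weeks old, with no genetic change or treatment named in the labels. Ileal tissue came from the stretch 5 to 8 cm from the cecum and jejunal tissue from 5 to 8 cm past the pylorus. In each region the labels name crypt cells (3 libraries per region), LGR5 cells, called after a receptor of crypt base stem cells (2 libraries per region), and cells sorted as CD44+/CD24lo/CD166+, called CD166 here (2 libraries per region). The labels do not say how LGR5 cells were marked or whether libraries came from separate mice, and p-values measure only the spread between these libraries, which may be technical. Each library held 6295828 to 20380369 counts.

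In the gut wall, glutamine and glutamate are turned into citrulline inside mitochondria. Aldh18a1 (pyrroline-5-carboxylate synthase) and Oat (ornithine aminotransferase) lead from glutamate to ornithine, Nags makes the activator that Cps1 requires, Cps1 makes carbamoyl phosphate from ammonia, and Otc joins it with ornithine to give citrulline. Ass1 and Asl turn citrulline into arginine, and Arg2, the mitochondrial arginase, splits arginine into ornithine and urea. The adult small intestine is known for releasing citrulline into the blood, from which the kidney makes arginine.

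RefSeq promoter sequence was matched for 5 of the 8 genes (Otc, Oat, Ass1, Aldh18a1 and Nags). The 250 bases before the annotated start (build GRCm38.p6) are shown for 3 genes. Ass1 was called between regions by a narrow margin that most refits lost. Oat and Aldh18a1 had levels that followed each other across libraries. Nags, which followed Aldh18a1 about as closely, is not shown. They lie at chr2:31470020-31470269 on the plus strand for Ass1, chr7:132576399-132576648 on the minus strand for Oat and chr19:40588464-40588713 on the minus strand for Aldh18a1. Capitals mark the E-box palindrome CACGTG and the CCAAT box, read on both strands (ATTGG on the other).
Ass1: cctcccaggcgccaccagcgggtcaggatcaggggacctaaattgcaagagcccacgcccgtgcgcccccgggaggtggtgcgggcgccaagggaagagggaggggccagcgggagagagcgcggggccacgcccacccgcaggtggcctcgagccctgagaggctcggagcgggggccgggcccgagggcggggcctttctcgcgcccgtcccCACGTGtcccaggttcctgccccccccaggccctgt
Oat: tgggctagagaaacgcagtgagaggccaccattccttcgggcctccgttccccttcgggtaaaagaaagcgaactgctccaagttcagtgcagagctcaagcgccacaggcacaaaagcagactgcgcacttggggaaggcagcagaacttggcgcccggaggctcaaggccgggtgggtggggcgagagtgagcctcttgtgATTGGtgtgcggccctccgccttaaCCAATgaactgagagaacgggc
Aldh18a1: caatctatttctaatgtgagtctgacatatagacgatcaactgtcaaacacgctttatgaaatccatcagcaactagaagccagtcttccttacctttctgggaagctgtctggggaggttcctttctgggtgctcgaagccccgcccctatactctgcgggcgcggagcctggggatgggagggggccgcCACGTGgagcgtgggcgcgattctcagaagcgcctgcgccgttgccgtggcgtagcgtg
CACGTG began 36 bases before the start in Ass1 and 59 bases before it in Aldh18a1, and it occurred in 6.02% of all 32851 promoter windows of the same length. CCAAT boxes began 47 and 22 bases before the start of Oat, and 33.8% of all windows held at least 1. Otc and Nags held neither motif in this window. These are letter matches only, and no binding was measured in this series.

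A few libraries bear on the results below. The library labelled ileum crypt 3 went against its label. Levels are given as CPM, the share of a library's counts after TMM scaling. Fabp6, an ileal bile acid carrier, had 25.8 CPM there, while ileum crypt 1 and 2 had 2688 and 1987. Gata4, a jejunal transcription factor, had 233 CPM there, and 28.0 and 45.4 in those libraries. Of all library pairs it was most like jejunum crypt 1, with 16.9% of genes differing beyond counting noise (36.6% in the next closest pair). Jejunum crypt 1 in turn had more Fabp6 than its group, 25.1 CPM against 1.26 and 1.14 in jejunum crypt 2 and 3. Its Gata4 level, 229 CPM, lay between theirs (88.2 and 324 CPM). The reason for these values was not tested. Jejunum crypt 2 stood apart in the summed RNA of cell type markers. Its 10 enterocyte markers (Alpi, Sis, Apoa1, Fabp1 and others) summed to 52084 CPM against 5733 to 33193 in the other crypt libraries, its lymphocyte markers to 2468 CPM against 83.6 to 961, and its crypt base columnar cell markers, Lgr5 and Olfm4 among them, to 1270 CPM against 2510 to 4847. In sorted libraries the crypt base columnar list summed to 7953 to 18629 CPM in LGR5 and 10003 to 12969 CPM in CD166 libraries, and the Paneth cell list reached 32406 to 52679 CPM in CD166. Alcam, which encodes CD166, was no higher there, with means of 38.8 to 48.5 CPM over the 6 groups. Cd24a RNA was highest in these cells sorted as CD24lo, with means of 903 and 1121 CPM against 259 to 835 CPM in the other groups. Cd44 means were 170 and 181 CPM in CD166, 174 and 178 CPM in LGR5 and 39.6 and 58.4 CPM in crypt. Xist RNA was at 201 to 1675 CPM in 10 libraries labelled male, every sorted library among them. It was at or under 3.11 CPM in the other 4, which were ileum crypt 2 and 3 and jejunum crypt 1 and 3.

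Levels differed widely between the enzymes when set per kilobase of the longest annotated transcript. Over the 14 libraries, Oat had 974 ± 342 and Cps1 510 ± 203 CPM per kilobase (SD, n = 14). Arg2 had 190 ± 257, Otc 92.6 ± 15.3, Aldh18a1 91.1 ± 39.3, Nags 26.7 ± 11.7 and Asl 13.3 ± 1.99 CPM per kilobase. Ass1, which starts the return to arginine, was lowest, at 3.25 ± 1.78 CPM per kilobase. The ratio of the highest to the lowest library was 358 for Arg2, 9.10 for Ass1, 6.54 for Cps1 and 5.44 for Oat, but 1.77 for Otc and 1.68 for Asl.

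**Figure D1:**
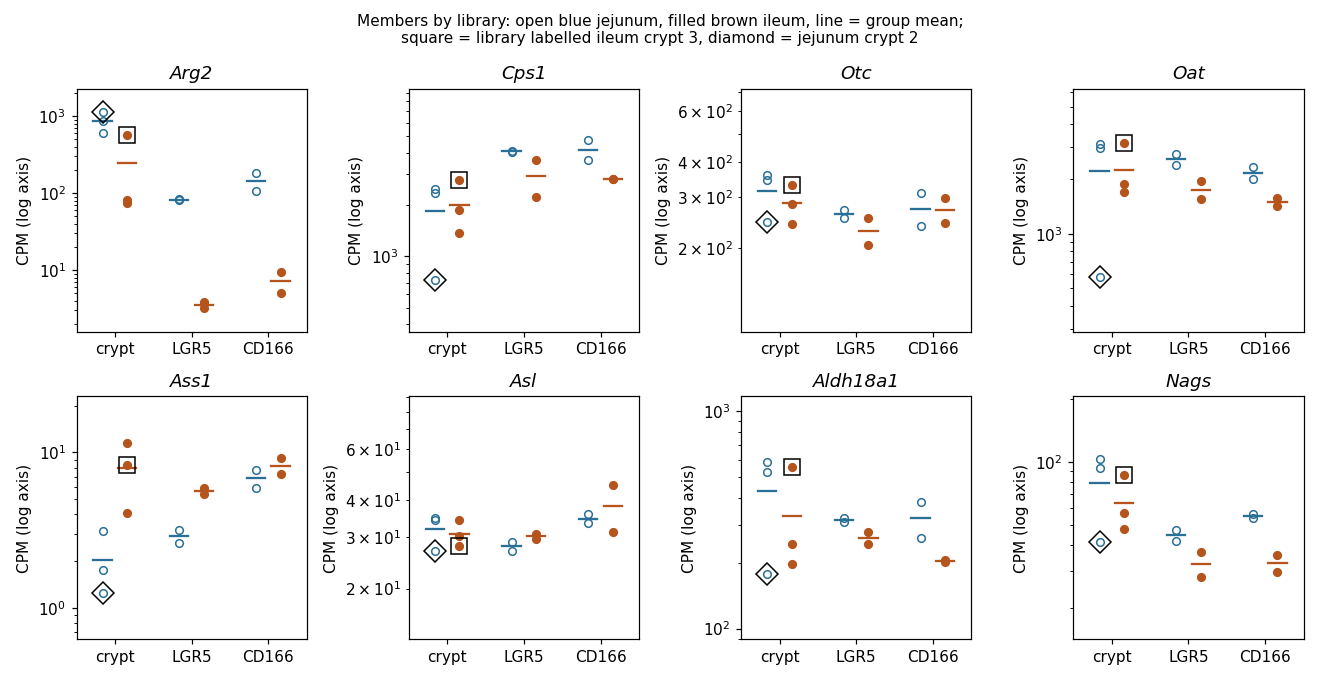
CPM of the 8 genes in each library on a log axis, by population, with jejunum as open blue circles, ileum as filled brown circles and the group mean as a line. Arg2 separates the regions in both sorted populations, where every jejunal library lies at or above 81.4 CPM and every ileal one at or below 9.35 CPM. The square marks the library labelled ileum crypt 3 and the diamond jejunum crypt 2, which is lowest of all 14 for Cps1, Oat, Ass1, Asl and Aldh18a1.

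Arg2 was lower in ileum than in jejunum and lower in both sorted populations than in crypt. In jejunal crypt it was at 595, 1139 and 857 CPM. Ileal crypt libraries had 73.7, 80.6 and 574 CPM, the last in the library labelled ileum crypt 3. No ileal crypt library reached a jejunal one, but that library lay just under jejunum crypt 1. LGR5 cells had 82.7 and 81.4 CPM in jejunum against 3.82 and 3.18 CPM in ileum. CD166 cells had 105 and 181 CPM in jejunum against 9.35 and 5.05 CPM in ileum. In the sorted cells, then, the regions were far apart and the replicates close together. The order of group means was jejunal crypt, ileal crypt, jejunal CD166, jejunal LGR5, ileal CD166 and ileal LGR5, and only the ranges of ileal crypt and jejunal CD166 overlapped among neighbours.

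Regions were compared by averaging ileum minus jejunum over the 3 populations, fitted with edgeR over 14750 genes and called at an adjusted p under 0.05. Of the 8 genes, 1 was called higher and 1 lower in ileum, beside 5.01% of all genes called (2.99% higher, 2.02% lower). Without the library labelled ileum crypt 3 the counts were 0 and 1, beside 8.61% of all genes, and without jejunum crypt 2 they were 1 and 2, beside 7.71%. Their median log2 difference was -0.33, against -0.01 for all genes tested. Arg2 was the gene called lower, by 11.8-fold (log2 difference -3.56 ± 0.50 SE, adjusted p = 0.00524), and it was called in 14 of 14 fits that each left out 1 library. Within populations its log2 difference was -1.83 ± 0.68 in crypt (adjusted p = 0.303), -4.53 ± 0.97 in LGR5 (adjusted p = 0.0569) and -4.33 ± 0.94 in CD166 (adjusted p = 0.183), none of them called. Among the 8 genes, edgeR called 0 within each population, with an unadjusted p under 0.05 for 2 in crypt (Arg2 and Ass1), 1 in LGR5 and 1 in CD166 (Arg2 in both). DESeq2 called Arg2 in LGR5 (5.69% of all genes) and CD166 (1.26%) and Ass1 in crypt (2.38%), and limma-voom called 0 of the 8. The background of edgeR calls was 0.0% of genes in crypt, 0.698% in LGR5 and 0.0203% in CD166. Of the 14750 genes, edgeR gave 1899 an unadjusted p under 0.05 in crypt, 2077 in LGR5 and 938 in CD166. Within crypt, DESeq2 called 323 genes and limma-voom 0.

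Leaving out the library labelled ileum crypt 3 changed the values for Arg2 within populations. The crypt difference became -3.48 ± 0.38 (adjusted p = 0.0015), with 4.17% of all genes called. In LGR5 and CD166 the differences stayed at -4.53 and -4.33 while their SE fell to 0.44 and 0.42 (adjusted p = 0.000992 and 0.0019), beside 2.42% and 0.76% of all genes. The fit shares its estimate of spread over all groups. With the sorted libraries alone, the log2 difference of Arg2 was -4.44 ± 0.26 (adjusted p = 6.63e-06), beside 10.4% of genes called. The joint test of whether the regional difference varied between populations called none of the 8 genes (edgeR adjusted p 0.904 to 0.986), beside 0.0136% of all genes. 1 of the 8, Arg2, had an unadjusted p under 0.05, beside 807 of all genes, and DESeq2 and limma-voom called none of the 8.

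**Figure D2:**
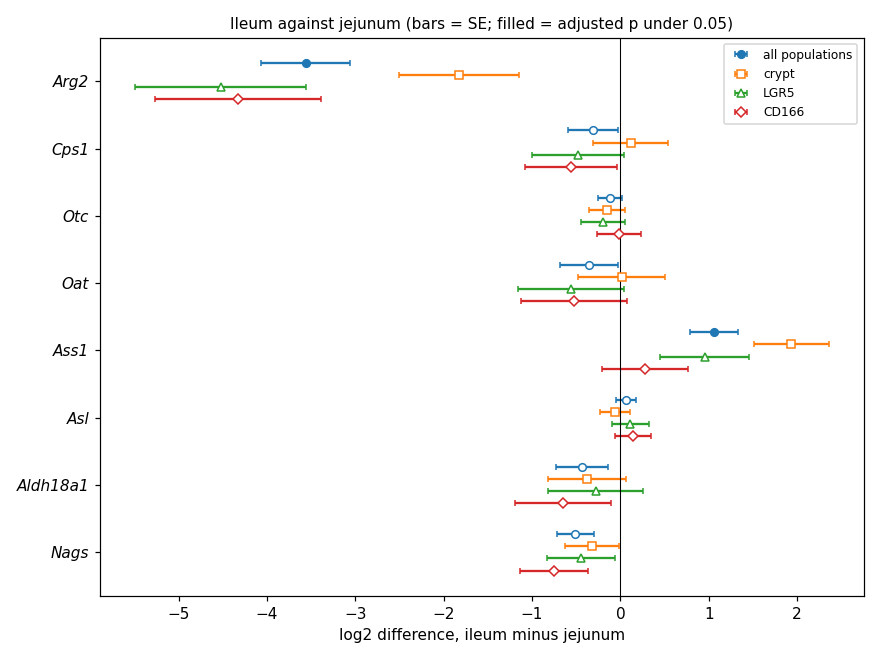
Log2 difference, ileum minus jejunum, of each gene over all populations (circles) and within crypt (squares), LGR5 (triangles) and CD166 (diamonds). Bars are SE and filled symbols passed an adjusted p under 0.05, which holds for Arg2 (-3.56) and Ass1 (1.06) over all populations.

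Ass1 went the other way at a level near the bottom of the measured range. Jejunal crypt libraries had 3.12, 1.26 and 1.74 CPM and ileal ones 4.10, 11.5 and 8.35 CPM, with no overlap. In LGR5 cells it was at 2.62 and 3.19 CPM in jejunum and 5.42 and 5.92 CPM in ileum, again apart. CD166 cells overlapped, with 7.67 and 5.95 CPM in jejunum and 7.29 and 9.18 CPM in ileum. Over the populations it was 2.08-fold higher in ileum (log2 difference 1.06 ± 0.27, adjusted p = 0.0494), on 7 to 144 counts per library. DESeq2 and limma-voom also called Ass1 higher in ileum over the populations, beside 789 of 14726 and 411 of 14750 genes. EdgeR with no filter on low counts did not call it (adjusted p = 0.052). The call held in 3 of 14 fits that left out 1 library (without ileum crypt 1, jejunum crypt 1 or jejunum crypt 2), with differences of 0.93 to 1.20. Ass1 missed the threshold with ileum crypt 3 left out (1.04 ± 0.29, adjusted p = 0.0534), and in the sorted libraries alone it was 0.61 ± 0.23 (adjusted p = 0.137).

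Asl, which completes the path from citrulline to arginine, was nearly level across the groups. Crypt libraries ranged from 26.8 to 34.9 CPM, LGR5 libraries from 26.9 to 30.8 CPM and CD166 libraries from 31.2 to 45.2 CPM. The regions overlapped in crypt and CD166. Its log2 difference between ileum and jejunum was 0.06 (95% interval -0.16 to 0.29, adjusted p = 0.889).

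Cps1, the ammonia-fixing step, was high in every library. Jejunal crypt had 2479, 726 and 2334 CPM and ileal crypt 1360, 1861 and 2781 CPM. LGR5 cells had 4130 and 4077 CPM in jejunum and 3644 and 2224 CPM in ileum. In CD166 cells the values were 4750 and 3619 CPM in jejunum and 2824 and 2838 CPM in ileum. Within each sorted population the jejunal libraries lay above the ileal ones, and the regional difference was not called (-0.31, 95% interval -0.87 to 0.24, adjusted p = 0.693). Nags, which makes the activator of Cps1, had 93.6, 41.5 and 103 CPM in jejunal crypt and 47.8, 56.5 and 86.8 CPM in ileal crypt. In LGR5 cells it had 41.7 and 47.0 CPM in jejunum and 36.8 and 28.1 CPM in ileum, and in CD166 cells 56.3 and 53.7 CPM in jejunum and 35.7 and 29.6 CPM in ileum. All sorted ileal libraries were therefore below all sorted jejunal ones for Nags. Its regional log2 difference was -0.51 ± 0.21 (adjusted p = 0.219), and it was called without jejunum crypt 2 (-0.61 ± 0.14, adjusted p = 0.0234) and in the sorted libraries alone (-0.61 ± 0.13, adjusted p = 0.00835).

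Otc, the enzyme that forms citrulline, lay between 204 and 360 CPM in all 14 libraries. Its regional log2 difference was -0.12 (95% interval -0.38 to 0.15, adjusted p = 0.777). Otc is on chromosome X, the chromosome of Xist. Oat had 3131, 579 and 2953 CPM in jejunal crypt and 1699, 1882 and 3146 CPM in ileal crypt. LGR5 cells had 2747 and 2388 CPM of Oat in jejunum and 1943 and 1543 CPM in ileum, and CD166 cells 2326 and 1995 CPM in jejunum and 1569 and 1428 CPM in ileum. In sorted cells the regions did not overlap for Oat, in crypt they did. Aldh18a1 had 527, 178 and 585 CPM in jejunal crypt and 197, 245 and 552 CPM in ileal crypt. In LGR5 cells Aldh18a1 had 325 and 308 CPM in jejunum and 277 and 244 CPM in ileum. In CD166 cells it had 384 and 262 CPM in jejunum and 208 and 203 CPM in ileum. The regions thus did not overlap within either sorted population, though they did across the populations. Neither Oat nor Aldh18a1 was called between regions (Oat -0.36 ± 0.33, adjusted p = 0.693, and Aldh18a1 -0.44 ± 0.29, adjusted p = 0.535). Both stayed just short of a call in the edgeR fit of the sorted libraries alone (Oat -0.55 ± 0.17, adjusted p = 0.0541, and Aldh18a1 -0.48 ± 0.14, adjusted p = 0.0531).

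Sorted cells were compared with crypt as the mean over the regions. Of the 8 genes, 0 rose and 2 fell in LGR5 cells, Arg2 and Nags, beside 31.5% of all genes called (13.0% higher, 18.5% lower). The same counts, 0 higher and 2 lower, again Arg2 and Nags, were found in CD166 cells, beside 30.1% of all genes (13.6% higher, 16.5% lower). At an unadjusted p under 0.05, edgeR had 1 of the 8 higher in LGR5 (Cps1) and 2 in CD166 (Cps1 and Ass1), which DESeq2 called (beside 36.5% and 35.2% of all genes), while limma-voom called 0 higher in LGR5 and Ass1 in CD166 (beside 29.7%). In either direction, 3 of the 8 in LGR5 and 4 in CD166 had an edgeR unadjusted p under 0.05. Of the 14750 genes tested, 6363 and 6207 did. The 2 comparisons share the crypt libraries. Xist RNA was at 201 CPM or more in every sorted library, but among crypt libraries only in ileum crypt 1 and jejunum crypt 2. The part of sex in these differences was not tested. The members' median log2 difference was -0.21 in LGR5 and -0.23 in CD166, against -0.01 and 0.02 for all genes. Arg2 fell in LGR5 (log2 difference -4.74 ± 0.66, adjusted p = 0.000548) and in CD166 (-3.84 ± 0.63, adjusted p = 0.00135). Leaving out ileum crypt 3 gave -3.92 ± 0.29 and -3.01 ± 0.27, both called, beside 26.6% and 25.3% of all genes. Nags fell in LGR5 (-0.91 ± 0.25, adjusted p = 0.0197) and in CD166 (-0.75 ± 0.25, adjusted p = 0.042). In CD166 the call for Nags was lost with ileum crypt 3 left out (-0.61, adjusted p = 0.0869), and it held in 4 of 14 fits that left out 1 library (ileum crypt 1, ileum crypt 2, jejunum crypt 2 or ileum LGR5 2). In LGR5 it held in 10 of 14 such fits and was lost without any of the 4 LGR5 libraries.

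Cps1 was the enzyme with the opposite values, 0.85 ± 0.33 in LGR5 (adjusted p = 0.0709) and 0.84 ± 0.33 in CD166 (adjusted p = 0.0763), neither called. Both were called without jejunum crypt 2 (0.64 ± 0.22, adjusted p = 0.0425, and 0.62 ± 0.22, adjusted p = 0.048) and by DESeq2. Oat, Otc, Aldh18a1 and Asl were not called, with log2 differences from crypt between -0.55 and 0.21. Ass1 differed from crypt by 0.0028 in LGR5 (adjusted p = 0.996), and by -0.16 to 0.22 in fits that left out 1 library. In CD166 it differed by 0.88 ± 0.31 (adjusted p = 0.0543, not called). Without jejunum crypt 2, Otc was lower in LGR5 (-0.40 ± 0.14, adjusted p = 0.0447), and Oat (-0.57 ± 0.19, adjusted p = 0.0393) and Aldh18a1 (-0.77 ± 0.27, adjusted p = 0.0463) were lower in CD166. The members called then numbered 1 higher and 3 lower in LGR5, beside 34.8% of all genes (14.7% higher, 20.1% lower), and 1 higher and 4 lower in CD166, beside 35.3% (16.1% higher, 19.2% lower). Between CD166 and LGR5 cells none of the 8 genes was called by edgeR, DESeq2 or limma-voom, beside 1.61% of all genes in edgeR. Ass1 and Asl had an edgeR unadjusted p under 0.05 (2 of 8), beside 1363 of the 14750 genes tested. Arg2 differed by 0.90 (95% interval -0.29 to 2.10).

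**Figure D3:**
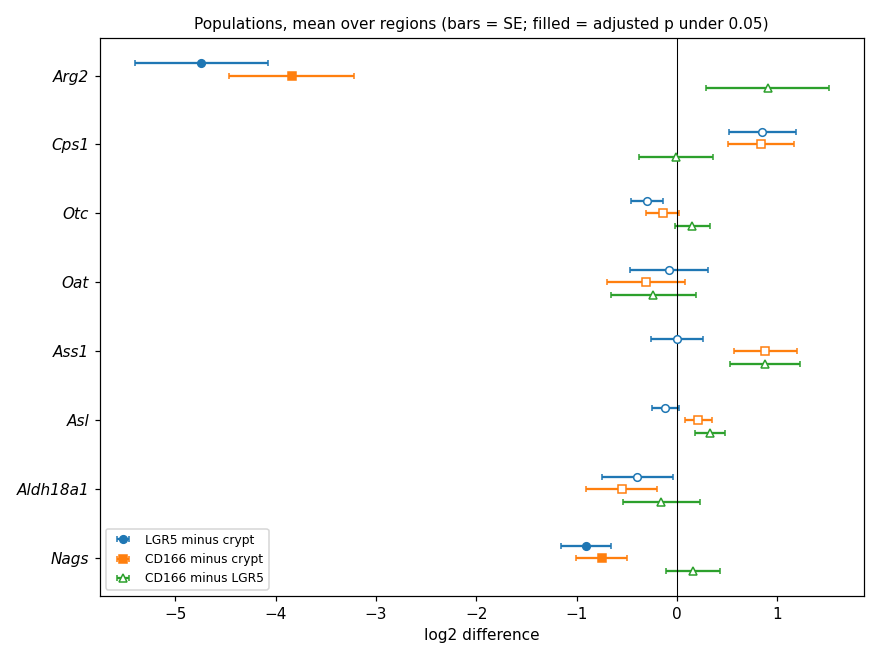
Log2 difference of each gene between populations, averaged over the regions: LGR5 minus crypt (circles), CD166 minus crypt (squares) and CD166 minus LGR5 (triangles). Bars are SE and filled symbols passed an adjusted p under 0.05: Arg2 at -4.74 and -3.84 and Nags at -0.91 and -0.75, all against crypt.

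Enterocyte markers moved with Arg2. Their summed level was 21648 to 52084 CPM in jejunal crypt and 5733 to 20896 CPM in ileal crypt. It was 1244 to 1844 CPM in jejunal LGR5, 1782 to 2571 CPM in jejunal CD166, 435 to 453 CPM in ileal LGR5 and 649 to 823 CPM in ileal CD166, with all 10 markers counted in every group. Both the regional order and the order of populations were thus shared with Arg2, and the part of these cells in the Arg2 result was not tested. In bulk RNA, fewer cells of a type and less RNA per cell cannot be told apart. The enterocyte list also includes Lct, which was listed as a marker of region as well. How far such genes set the regional order of the sum was not tested. Jejunum crypt 2, with the highest enterocyte sum, had the highest Arg2 but the lowest Cps1 and Oat of all libraries. The mean of the other 5 crypt libraries was 4.43 times its level for Oat, 4.57 times for Ass1, 2.98 times for Cps1, 2.36 times for Aldh18a1 and 1.87 times for Nags, but 1.27 times for Otc and 1.20 times for Asl.

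**Figure D4:**
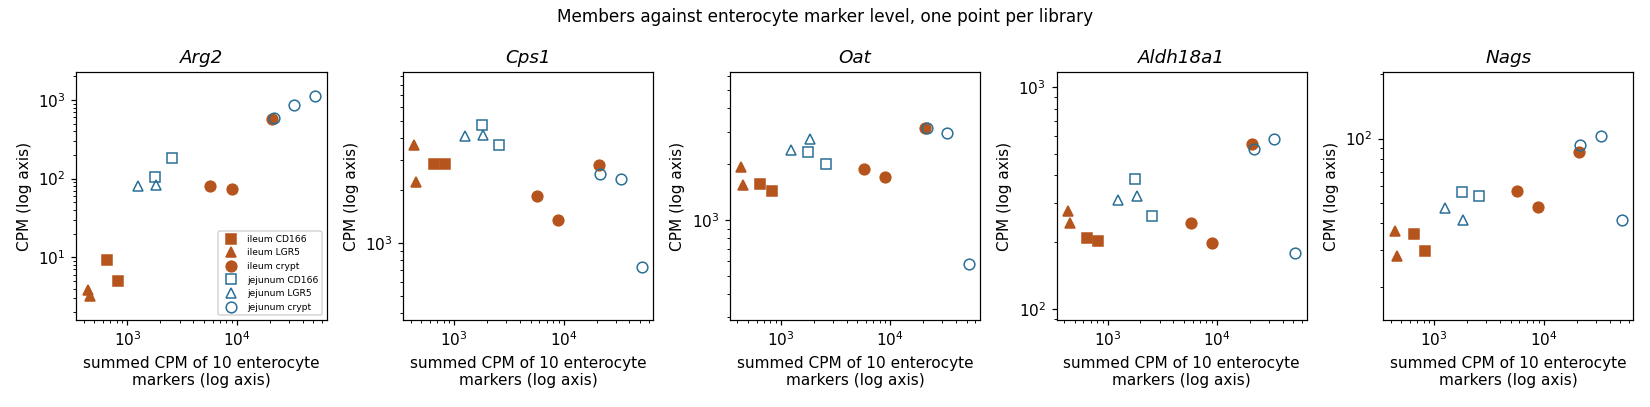
CPM of Arg2, Cps1, Oat, Aldh18a1 and Nags against the summed CPM of 10 enterocyte markers, 1 point per library, both axes log. Arg2 runs from 3.18 CPM to 1139 CPM and is mostly higher at higher sums. The rise is not even: ileum crypt 1 and 2, with sums of 8957 and 5733 CPM, have 73.7 and 80.6 CPM of Arg2. Jejunal CD166 libraries, with sums of 1782 and 2571 CPM, have 105 and 181 CPM. The library with the highest sum (52084 CPM) is lowest of all for Cps1 (726 CPM), Oat (579 CPM) and Aldh18a1 (178 CPM).

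Several members followed each other across libraries, described here by Pearson's r of log2 CPM over 14 libraries that share groups and depth. Oat and Aldh18a1, the enzymes around glutamate semialdehyde, had r = 0.82, with 0.85 in the 6 crypt and 0.88 in the 8 sorted libraries. Aldh18a1 and Nags had r = 0.83 (0.99 in crypt, 0.73 in sorted). Cps1 and Oat had r = 0.69 over all libraries, but 0.98 within crypt and 0.87 within sorted libraries. Arg2 and Nags had r = 0.81 (0.39 in crypt, 0.91 in sorted), and Otc and Nags r = 0.78 (0.90 in crypt, 0.46 in sorted). The lowest value of all member pairs was that of Arg2 and Ass1, r = -0.54. Among tested genes with a mean of at least 3 on the log2 CPM scale, the closest patterns to Arg2 were those of Rdh7 (r = 0.993), Mme (r = 0.990) and Ugt2a3 (r = 0.987). Cps1 was most like Muc4 (r = 0.981), Mccc2 (0.970) and Hspg2 (0.968), and Oat like Add3 (0.963), Far2 (0.960) and 1300001I01Rik (0.960). For Aldh18a1 they were Sdha (r = 0.974), Ddi2 (0.962) and Aifm1 (0.951), and for Nags Slc39a5 (0.963), Lpcat3 (0.961) and Pcsk5 (0.953). The highest values were lower for Otc (Sephs2, r = 0.870, 0610012G03Rik, 0.868, and Nt5m, 0.867), Ass1 (Agt, 0.873, Wnt3, 0.866, and Hpd, 0.839) and Asl (Erp29, 0.897, D17Wsu104e, 0.892, and H2-Ke2, 0.860).

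The surrounding pathway was read from a list of 47 genes, of which 43 were tested. Nos1, Nos3 and Slc25a2 fell below the filter and Oaz2 was not analysed here. Between regions, 3 of the 43 were called higher in ileum and 4 lower, beside 2.99% and 2.02% of all genes (5.01% in either direction). Those higher were Gpt2 (alanine aminotransferase, log2 difference 1.12 ± 0.26), Pycr1 (which closes the path to proline, 1.24 ± 0.27) and Ddah1 (which degrades methylated arginines, 2.67 ± 0.53). Ddah1 had 23.9, 37.1 and 3.20 CPM in ileal crypt against 3.30, 0.180 and 2.18 CPM in jejunal crypt, and 10.7 to 14.4 CPM in ileal sorted libraries against 2.13 to 2.87 CPM in jejunal ones. Lower in ileum were Gpt (-1.20 ± 0.25), Agmat (agmatinase, -1.03 ± 0.23) and the subunits of the cystine and dibasic amino acid carrier, Slc3a1 (-1.21 ± 0.14) and Slc7a9 (-0.68 ± 0.17). Slc3a1 kept its call in 14 of 14 fits without 1 library, Ddah1 in 8 and Gpt in 7 (lost only where a sorted library was left out), Pycr1 in 6, Gpt2 and Agmat in 5 and Slc7a9 in 4. Without the library labelled ileum crypt 3, 4 of the 43 were higher and 8 lower (8.61% of all genes called), and without jejunum crypt 2 there were 4 higher and 5 lower (7.71%). Within LGR5 cells Gpt2 (2.52 ± 0.49) was higher and Slc3a1 (-1.81 ± 0.27) lower in ileum, called in 4 and 6 of 14 such fits. Gpt2 had 12.5 and 34.5 CPM in ileal LGR5 and 4.22 and 4.01 CPM in jejunal LGR5. The value of 34.5 CPM came from ileum LGR5 2. That library had the highest goblet cell marker sum of all libraries (21660 CPM) and the lowest crypt base columnar sum of the sorted ones (7953 CPM). Of all genes, 0.698% were called within LGR5. Within crypt and within CD166 edgeR called 0 of the 43, beside 0.0% and 0.0203% of all genes. At an unadjusted p under 0.05 there were 15 in crypt and 5 in CD166, beside 1899 and 938 of the 14750 genes tested. DESeq2 called 5 and 2 of the 43, beside 2.38% and 1.26% of all genes. For limma-voom these counts were 0 in crypt, where it called 0 genes at all, and 1 in CD166 (beside 0.319% of all genes).

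Between populations, called genes included most of the 13 carriers, the longest group on the list. In LGR5 cells 4 of them were higher than in crypt and 6 lower, and among all 43 genes 6 were higher and 12 lower, beside 13.0% and 18.5% of all genes (31.5% in either direction). The neutral carrier Slc6a19 (-5.12 ± 0.51), Slc7a9 (-3.61 ± 0.24), Slc3a1 (-2.93 ± 0.19) and the basolateral carrier subunit Slc7a7 (-2.12 ± 0.25) fell furthest among the carriers. In CD166 cells 2 of 13 carriers were higher and 6 lower than in crypt, and among the 43 genes 9 were higher and 12 lower, beside 13.6% and 16.5% of all genes (30.1% in either direction). Slc7a9 (-2.96 ± 0.23), Slc3a1 (-2.41 ± 0.18), Slc7a7 (-2.10 ± 0.25) and Slc6a19 (-2.02 ± 0.42) fell there too. The cationic amino acid carrier Slc7a2 was higher in both, by 1.35 ± 0.26 in LGR5 and 1.04 ± 0.26 in CD166. The enterocyte marker sum was lower in every sorted library than in every crypt library, and its part in these falls was not tested. Without the library labelled ileum crypt 3 the 43 genes gave 5 higher and 11 lower in LGR5 and 8 higher and 9 lower in CD166 (26.6% and 25.3% of all genes called), and without jejunum crypt 2 7 and 14, and 11 and 11 (34.8% and 35.3%).

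Of the 8 genes of glutamine and glutamate supply, 1 rose and 3 fell in each sorted population. The counts of this and the next groups stand beside the 31.5% of all genes called in LGR5 and 30.1% in CD166. Their counts at an unadjusted p under 0.05 in LGR5 stand beside 6363 of the 14750 genes tested. Glul, glutamine synthetase, rose by 1.11 ± 0.21 in LGR5 and 1.02 ± 0.21 in CD166. In the same order, log2 differences were -3.76 ± 0.34 and -3.39 ± 0.33 for Gpt, and -1.30 ± 0.21 and -1.29 ± 0.21 for Got1, an aspartate aminotransferase. The mitochondrial ornithine carrier Slc25a15 also fell (-0.73 ± 0.18 and -0.80 ± 0.18). Of the 6 proline genes, 0 rose (0 at an unadjusted p under 0.05) and 2 fell in LGR5, and 2 rose and 1 fell in CD166. Aldh4a1, which makes glutamate from proline's breakdown product, fell in both (-3.02 ± 0.66 and -1.88 ± 0.61), and the call in CD166 held in 5 of 14 fits without 1 library. Prodh2 fell in LGR5 (-1.96 ± 0.61, called in 8 of 14 fits) and rose in CD166 (1.97 ± 0.47, called in 13). Of the 10 polyamine genes, 1 rose and 1 fell in each sorted population: Azin1, which frees ornithine decarboxylase from its inhibitor, fell in both (-0.88 ± 0.17 and -0.56 ± 0.17), while Amd1 rose in LGR5 (0.64 ± 0.20) and Smox in CD166 (0.71 ± 0.23). Amd1 and Smox kept those calls in 5 and 3 of 14 fits without 1 library, and Azin1 in 14 and 9. Odc1, ornithine decarboxylase itself, and Prodh were called in none of the comparisons, with Odc1 group means of 194 to 250 CPM.

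Arg1, the cytosolic arginase, had a different pattern from Arg2. It was at 1.06 to 2.75 CPM in the crypt libraries and 2.21 to 3.98 CPM in LGR5. CD166 cells had 5.45 and 6.57 CPM in ileum and 17.8 and 18.1 CPM in jejunum. It was thus highest in jejunal CD166 cells, where Arg2 was at 105 and 181 CPM. The enteroendocrine marker sum was also highest there, at 3634 and 3665 CPM, against 485 and 1411 CPM in ileal CD166 and 177 to 705 CPM in the crypt and LGR5 libraries. In CD166 Arg1 was higher than in crypt by 2.44 ± 0.23 (adjusted p = 6.59e-05) and than in LGR5 by 1.86 ± 0.26 (adjusted p = 0.00402), called in 14 of 14 fits without 1 library each. Gatm, which uses arginine to start creatine synthesis, was higher in CD166 than in crypt by 3.45 ± 0.40 and than in LGR5 by 4.12 ± 0.48, with 8.00 to 26.4 CPM in CD166 against 0.492 to 1.98 CPM elsewhere. Of the 6 other arginine enzymes tested, 3 rose and 1 fell in CD166 against crypt, Ddah2 (1.51 ± 0.42) and Gamt (-1.04 ± 0.33, called in 6 of 14 fits) being the rest, and edgeR called none in LGR5, where Arg1 and Gamt (2 of 6) had an unadjusted p under 0.05. Against LGR5, 4 of the 43 genes were higher in CD166 and 0 lower, beside 1.61% of all genes (238 higher and 0 lower), the other two being Prodh2 (3.93 ± 0.61) and Slc6a19 (3.09 ± 0.48, lost without any of the 4 LGR5 libraries). The Paneth marker sum was 32406 to 52679 CPM in CD166 and 5040 to 8658 CPM in LGR5. It was 17757 to 38917 CPM in ileal crypt, a range that overlapped that of CD166, and 5782 to 22893 CPM in jejunal crypt. The part of the Paneth and enteroendocrine markers in these values was not tested.

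**Figure D5:**
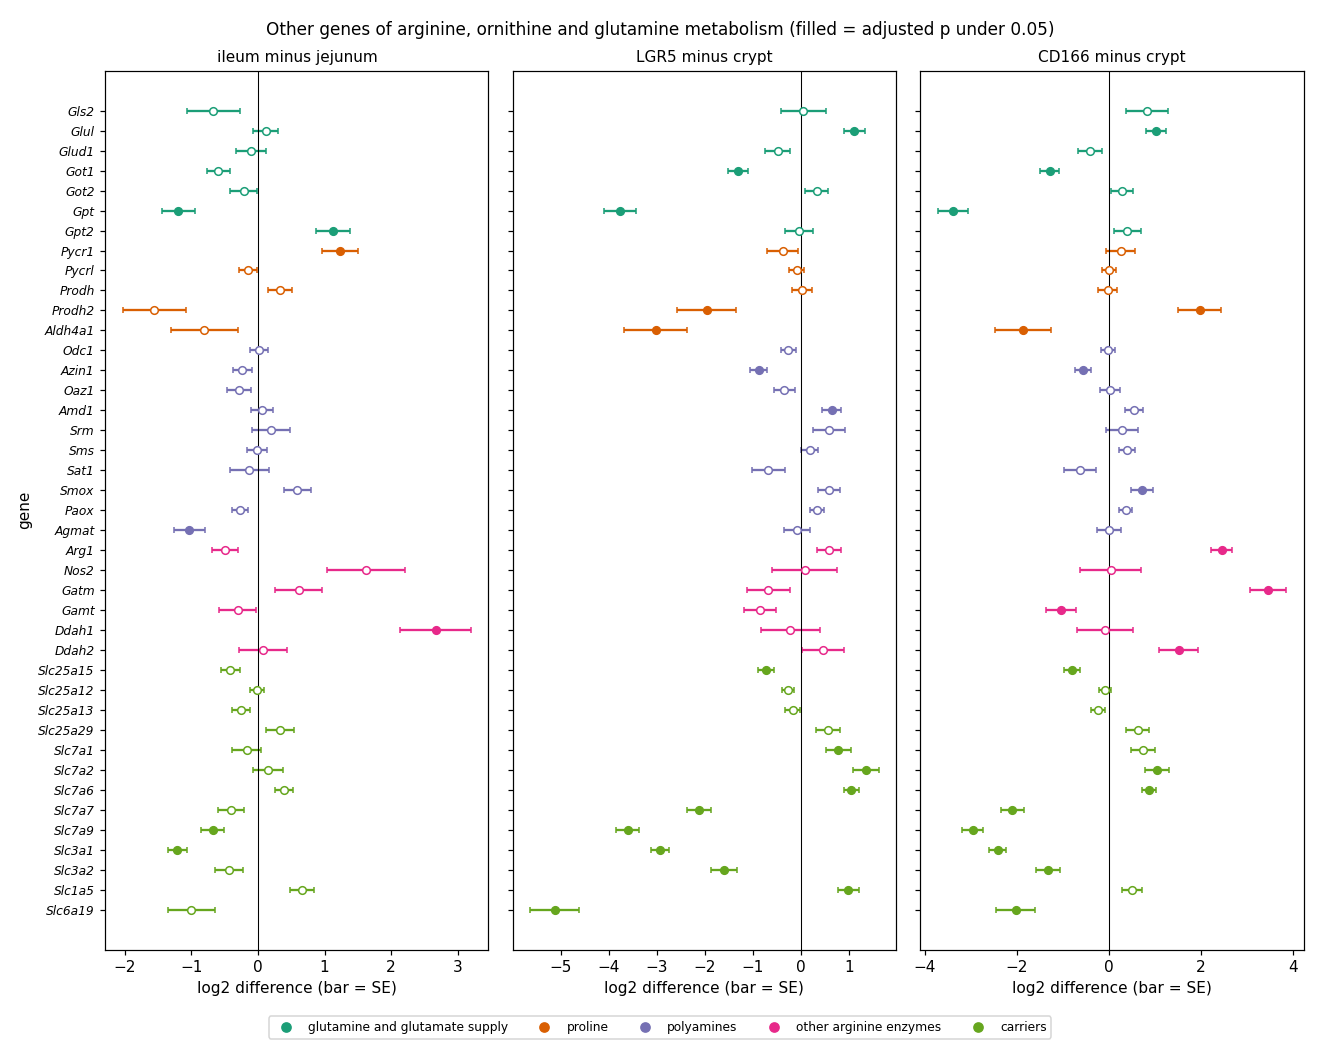
Log2 differences of 41 of the 43 other pathway genes, coloured by gene group, for ileum minus jejunum, LGR5 minus crypt and CD166 minus crypt. Bars are SE and filled points passed an adjusted p under 0.05: 7 of the plotted genes between regions, 17 in LGR5 and 19 in CD166.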

How the data were processed

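RNA of 14 libraries was sequenced with an Illumina TruSeq kit on an Illumina HiSeq as single-end reads of 50 bases, per the labels' protocols. Build mm9 and DESeq are named in the submitters' processing notes, with no role given. Which aligner, counter or annotation was used is not given in the sources used here. The labels also describe a culture of sorted cells, while the series' design text says that sorted cells went straight into lysis buffer.

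The tables of expected counts deposited by the authors hold unscaled estimates (50.6% of values above 0 are whole within 0.001), though they are named as RPKM. The other tables the authors deposited hold log2 values relative to each gene's median. For the 8826 genes above 50 counts in all libraries they equal the same counts on the log2 scale within 1.2e-06, and they were not used for tests.

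Expected counts were rounded and fitted with edgeR 4.0.16 (R 4.3.3) using TMM scaling, 1 mean for each of the 6 groups and the quasi-likelihood test. A filter (minimum count 10, minimum total 15) left 14750 genes, and Benjamini-Hochberg adjusted p under 0.05 was called. CPM are TMM-scaled, SE is the log2 difference divided by the root of F, and 95% intervals are 1.96 SE. An SE from this formula is unstable where the difference is near 0. The intervals are approximate and narrower than the quasi-likelihood test implies for so few libraries. DESeq2 1.42.0, limma-voom (limma 3.58.1), other filters and scaling, a replicate block and each library left out were tried. Where a symbol had several entries, the one with the highest mean count was used. Transcript lengths come from GENCODE M21.

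The 8 genes and the lists were chosen with earlier results of these data known. The 8 genes are described whatever they showed. Of the other pathway genes, those called were named, at most 4 per gene group and comparison by size, plus Arg1, Odc1, Pycr1, Slc25a15 and Prodh, and the 3 genes most alike were named for each member. Ddah2, Gamt, Amd1, Smox, Nos2, Alcam, Cd24a and Cd44 were named after their values were seen or as the rest of a count. A few genes of the list are counted but not reported here by name.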

Additional observations from a re-analysis of the deposited data

How the results depend on the processing

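The calls for Arg2 between regions, in LGR5 against crypt and in CD166 against crypt held in all 14 fits without 1 library, with ranges of -4.11 to -3.42 between regions. Of 1464 refitted values of the 8 genes, 1346 kept direction and side of the threshold, 37 gained and 37 lost a call and 44 changed sign. The precision for Ass1 is limited by counts as low as 7 per library. The call for Nags in CD166 against crypt was also lost with limma-voom (adjusted p = 0.0595). In edgeR it was lost with no filter (adjusted p = 0.0568) and with the compared populations alone (adjusted p = 0.0691).

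Counts of called genes varied more. The 739 genes between regions became 1410 with DESeq2, 1402 without the most alike crypt libraries (ileum 3 and jejunum 1) and 1440 in sorted libraries alone, and 138 to 1269 without 1 library. Within crypt (0 genes) there were 323 with DESeq2, 863 without those libraries and 0 to 614 without 1 library. Within LGR5 (103) there were 773 with DESeq2, 30 with limma-voom, 1574 from the compared groups alone, 399 without those libraries and 2 to 376 without 1 library. Within CD166 (3) there were 13 with no filter, 186 with DESeq2, 47 with limma-voom, 571 from the compared groups alone, 142 without those libraries and 0 to 112 without 1 library. LGR5 against crypt gave 4639 (2421 to 5032 without 1 library) and CD166 against crypt 4439 (2769 to 5112). CD166 against LGR5 gave 238, 421 with DESeq2, 575 from those populations alone and 85 to 295 without 1 library. The joint test gave 2, 70 with DESeq2, 0 with limma-voom and 0 to 15 without 1 library. The alternatives without both libraries and with sorted libraries alone were chosen after seeing the data, and the cause of these shifts was not tested. Without both libraries, edgeR called Arg2 (-3.69 ± 0.36, adjusted p = 0.000677) and Ass1 (2.32 ± 0.51, adjusted p = 0.027) within crypt. Against crypt it then called Cps1 in LGR5 (adjusted p = 0.0361) and CD166 (adjusted p = 0.0386) and Ass1 in CD166 (adjusted p = 0.0374). Nags was called in neither LGR5 (-0.70, adjusted p = 0.0627) nor CD166 (-0.54, adjusted p = 0.134).

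The labels do not say whether libraries with the same replicate number are paired. Deviations of same-numbered libraries correlated at -0.39, -0.45 and 0.38 in crypt, -0.21 in LGR5 and -0.29 in CD166. With 2 libraries per group the deviations mirror each other, so each sorted population gives only 1 value. These correlations cannot decide whether the libraries are paired. With the replicate block, 3 genes were called within crypt, 254 within LGR5, 31 within CD166 and 0 in the joint test. In that fit Ass1 between regions had adjusted p = 0.0742, Nags was not called against crypt (-0.63 in LGR5, adjusted p = 0.0517, and -0.48 in CD166, adjusted p = 0.122), Cps1 was (1.13, adjusted p = 0.031, and 1.13, adjusted p = 0.0321), and Arg2 was called within LGR5. With the jejunal numbers crossed, a pairing added after seeing the data, 8 genes were called within crypt, 349 within LGR5, 40 within CD166 and 0 in the joint test.

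The sign changes were all in values not called. Within crypt, Asl was 0.055 without both libraries. In LGR5 against crypt, Oat was 0.18 with limma-voom, 0.25 without both libraries, and 0.27 with the block as labelled or crossed. There Ass1 was -0.032 with DESeq2 size factors, -0.00469 with a filter at 1 CPM, -0.033 with DESeq2, -0.013 from the compared populations, and -0.039 and -0.031 with the block as labelled and crossed, while Aldh18a1 was 0.066 and 0.050 with these blocks. In CD166 against crypt, Oat was 0.016 without both libraries and 0.049 and 0.041 with the blocks, and in CD166 against LGR5, Cps1 was 0.00593 with limma-voom and 0.000274 and 0.013 with the blocks. Without 1 library, Asl between regions ran from -0.031 to 0.14. Within crypt Cps1 ran from -0.26 to 0.39, Oat from -0.44 to 0.34 and Asl from -0.17 to 0.0077, and within CD166 Otc ran from -0.20 to 0.17 and Asl from -0.15 to 0.37. In LGR5 against crypt, Oat ran from -0.33 to 0.088 and Ass1 from -0.16 to 0.22, and in CD166 against LGR5, Cps1 from -0.17 to 0.18.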

Other observations

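Nos2, the inducible nitric oxide synthase that also uses arginine, was named after its values were seen. It was at 91.6, 57.5 and 24.8 CPM in ileal crypt and at 21.0, 2.52 and 0.818 CPM in jejunal crypt. LGR5 cells had 48.1 and 21.7 CPM in ileum and 11.4 and 19.0 CPM in jejunum, and CD166 cells 36.7 and 23.6 CPM in ileum and 20.5 and 12.7 CPM in jejunum. The ileal and jejunal ranges did not overlap within any population, and edgeR did not call the regional difference (log2 1.62 ± 0.58 over all populations, adjusted p = 0.154). Over all populations DESeq2, limma-voom and the fit with the replicate block called Nos2 higher in ileum, and DESeq2 did so within crypt.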
